A study of Arabidopsis thaliana with 9 samples.

Results

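Rosette leaves of an Arabidopsis thaliana line with an empty inducible vector, treated with dexamethasone (dex), were compared with leaves of the inducible DVL4 line given a mock treatment. These are the 6 arrays of the series, of 9 in all, in which no DVL4 was induced, and they were chosen by their titles. All 22746 probe sets of the ATH1 array that are not AFFX controls entered the comparison, out of 22810. Both lines are Columbia plants carrying GVG. Empty vector dex (3 arrays) had GVG with no coding sequence behind it and received 30 µM dex, read from the unit written um. DVL4 mock (3 arrays) had GVG with the DVL4 coding sequence and received no dex. DVL4 dex (3 arrays), the same DVL4 line with 30 µM dex, is given beside them where its values help a reader. Plants grew at 22 °C in 16 h days, were treated at the stage of 6 expanded rosette leaves, and were harvested 10 h later. Each array held RNA pooled from the largest rosette leaf of 20 plants, so it is 1 biological replicate by the labels. The series text states that the empty vector line looked like wild type with dex or mock treatment, as did the DVL4 line without dex. It names 1 line for each construct. No mock-treated empty vector leaves are among the samples, so the line and the dex treatment cannot be told apart in any value given here.

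GVG is a chimeric activator made of the yeast GAL4 DNA-binding domain, the viral VP16 activation domain and the hormone-binding domain of the glucocorticoid receptor. Plants have no glucocorticoid receptor of their own, and dex lets GVG enter the nucleus and switch on genes placed behind GAL4 sites. Activated GVG is known from other Arabidopsis work to be able to disturb growth and induce defence genes by itself, which is why an empty vector line is used as a control.

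Leaf identity was checked first. The leaf markers RCA (rubisco activase), PRK (phosphoribulokinase) and LHCB4.1 (a light-harvesting protein) read from 7295 to 10184 in empty vector dex leaves and from 8739 to 11254 in DVL4 mock leaves, on the linear intensity scale of dChip used throughout. The 3 root markers measured lay between 17.0 and 51.9 in empty vector dex leaves and between 13.2 and 57.3 in DVL4 mock leaves, below the median of all probe sets (78.5). AMS, a pollen development factor, averaged 19.6 ± 3.61 in empty vector dex and 21.2 ± 1.55 in DVL4 mock leaves. None of the 11 markers or of the 3 reference genes passed the test. DVL4 itself has no named probe set in the tables used here. Array medians ran from 76.4 to 83.8 in empty vector dex and from 76.4 to 80.5 in DVL4 mock. The 5′ to 3′ signal ratio of the dap labelling control was 0.221, 1.03 and 0.553 in empty vector dex arrays 1, 2 and 3, against 0.796, 0.950 and 0.877 in DVL4 mock. Empty vector array 1 therefore had low 5′ signal, as did DVL4 dex arrays 1 and 2 (0.254 and 0.227), and it stood apart on the second principal component of the 9 arrays. Some results are also given without that array, or without all 3 arrays of low 5′ signal.

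The leaves differed at many genes. As leaves were taken whole, fewer cells of a type and less RNA per cell cannot be told apart for any level. At an adjusted p under 0.05, 1412 probe sets were called (6.21% of all tested), 943 higher (4.15%) and 469 lower (2.06%) in empty vector dex than in DVL4 mock. The call passed together with a difference of at least 2-fold for 336 probe sets higher (1.48%) and 117 lower (0.514%). The median log2 change over all probe sets was 0.02. Every called probe set separated the 3 arrays of empty vector dex from the 3 of DVL4 mock, and 26.6% of all probe sets did so. Higher calls made up 66.8% of all calls, and 55.9% when each array was centred on its median (904 probe sets called higher and 714 probe sets called lower). Of the 1412 calls, 419 were kept whichever of the 6 arrays was left out, and 489 without the 3 arrays of low 5′ signal. Of those 3 arrays only empty vector array 1 belongs to the groups compared. The DVL4 dex arrays enter the fit through the shared estimate of spread. Without empty vector array 1 alone 1140 probe sets were called, and without all 3 arrays 614. A call lost without the 3 arrays therefore need not depend on empty vector array 1. At the level of genes, 692 of 13350 were called (5.18%), 460 higher (3.45%) and 232 lower (1.74%). These shares of all genes are the background for each count of list or family members given here.

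**Figure D1:**
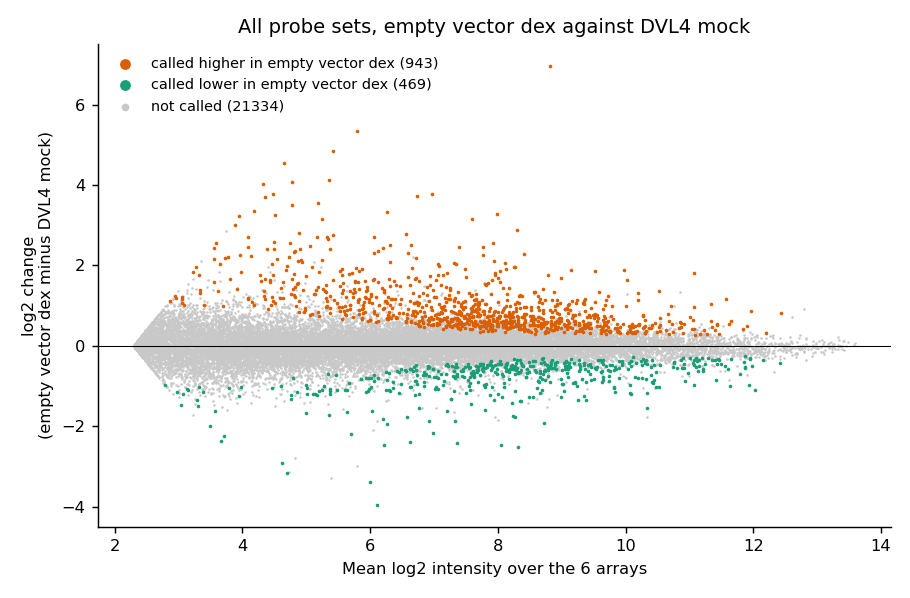
Each point is 1 of 22746 probe sets, with the mean log2 intensity over the 6 arrays on the x axis and the log2 change, empty vector dex minus DVL4 mock, on the y axis. The 943 probe sets called higher and the 469 called lower are coloured, and higher calls reach farther from 0 than lower ones.

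Most of the 15 largest rises belonged to loci known in the tables by number only. AT1G64405 read 357, 345 and 358 in empty vector dex, 956, 1061 and 676 in DVL4 dex and 10.4, 6.78 and 9.36 in DVL4 mock leaves. The empty vector arrays agreed closely and lay far above every mock array, a 40.6-fold rise (log2 change 5.34 ± 0.20, adjusted p = 1.4e-06). The mock values lie near the floor of the measurement, and with the floor at the 25th percentile of all values (20.1) the fold was 18. AT5G05320 had enough signal in both groups for the floor not to matter: 518, 472 and 418 in empty vector dex, 1399.7, 1448 and 866 in DVL4 dex and 30.5, 36.3 and 34.9 in DVL4 mock. It rose 13.8-fold, and the lowest empty vector array was above the highest mock array by a wide margin (adjusted p = 9.7e-06). AT4G23680 behaved alike, at 407, 421 and 338 in empty vector dex and 25.2, 31.2 and 32.5 in DVL4 mock, a 13.1-fold rise (adjusted p = 4.3e-05).

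Among the named genes the largest rise was that of BGLU45, a beta-glucosidase that acts on the glucosides of lignin precursors. Its intensity was 148, 155 and 222 in empty vector dex, 1239, 1344 and 1002 in DVL4 dex and 10.7, 10.1 and 8.81 in DVL4 mock leaves. The groups did not overlap, array 3 being the highest of the empty vector arrays, and the rise was 17.5-fold (log2 4.13 ± 0.18, adjusted p = 4.1e-06), or 8.57-fold with the higher floor. BGLU46, a related enzyme of the same activity, read 44.6, 34.4 and 33.1 in empty vector dex and 26.8, 8.66 and 13.6 in DVL4 mock. Its groups were separate too, but its log2 change of 1.34 ± 0.36 missed the threshold (adjusted p = 0.061). IAA29, an auxin-inducible repressor of auxin signalling, had 135, 69.5 and 114 in empty vector dex, 288, 372 and 206 in DVL4 dex and 7.88, 24.8 and 21.7 in DVL4 mock leaves. Empty vector array 2 was the lowest of its group and still above every mock array, and the rise was 6.30-fold (log2 2.66 ± 0.43, adjusted p = 0.0083), with an adjusted p of 0.099 without the 3 arrays of low 5′ signal.

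The other loci among the 15 largest rises were dimmer or more variable. AT5G51950 read 76.6, 139 and 132 in empty vector dex, 35.5, 34.4 and 22.2 in DVL4 dex and 3.72, 4.35 and 12.2 in DVL4 mock. It rose 16.8-fold, or 5.59-fold with the higher floor, and its empty vector arrays were brighter than its DVL4 dex arrays. AT5G15140 had the same order of group means, with 88.0, 77.2 and 71.6 in empty vector dex, 22.7, 21.1 and 15.8 in DVL4 dex and 7.44, 11.8 and 16.1 in DVL4 mock (7.01-fold over mock, 3.92-fold with the higher floor). AT1G13470 varied within its group, at 77.7, 276 and 229.7 in empty vector dex, 32.1, 53.3 and 37.6 in DVL4 dex and 27.0, 24.3 and 27.3 in DVL4 mock. Array 1 was the lowest of the empty vector arrays, and the rise was 6.50-fold (adjusted p = 0.0064), with a log2 change of 3.27 without array 1. AT3G58060, 1 of 4 metal homeostasis genes measured and the one called, had 77.4, 119 and 83.4 in empty vector dex and 7.96, 9.43 and 7.17 in DVL4 mock. It rose 11.3-fold, or 4.56-fold with the higher floor. The remaining 6 rose between 5.89-fold (AT2G36220) and 13.7-fold (AT1G14220). The call of AT1G14220 was lost with the higher floor, where its fold was 4.09.

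**Figure D2:**
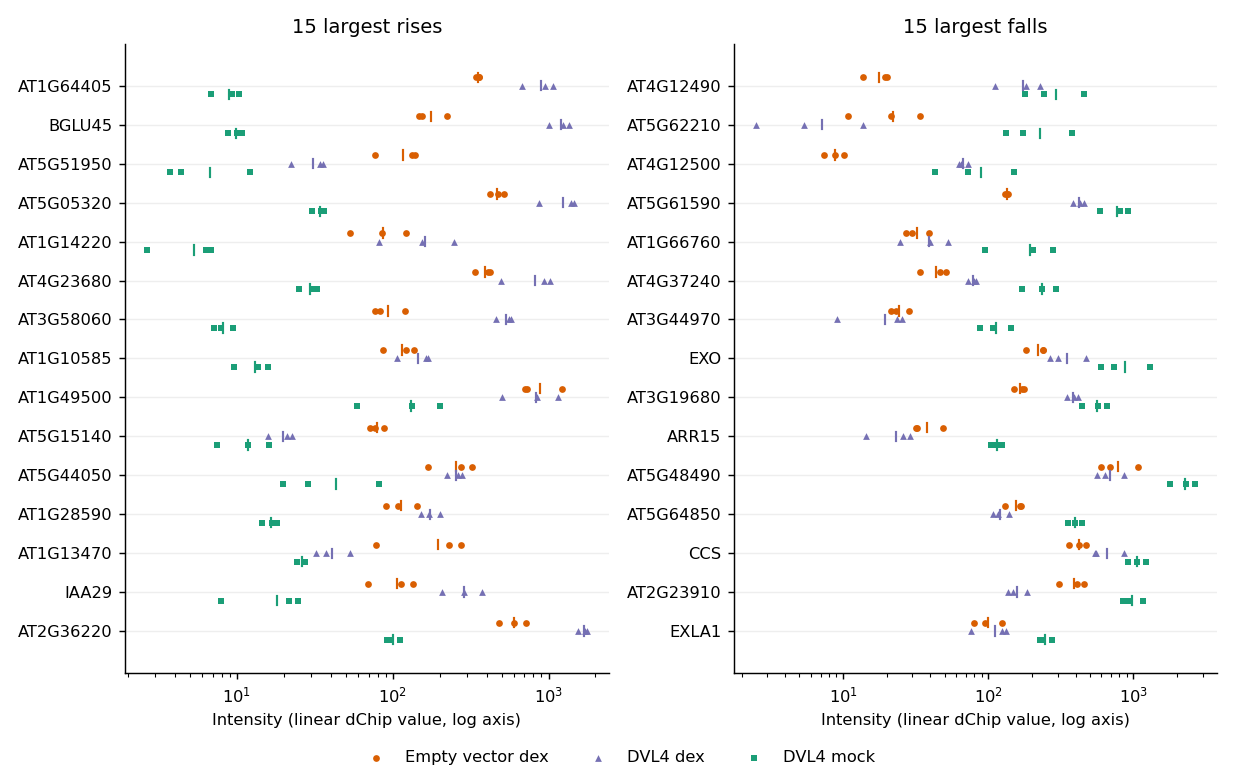
Points are the 3 arrays of each group on a log axis of linear intensity, short bars are group means, and genes run down the page by the size of the change. The empty vector dex and DVL4 mock points do not overlap in either panel, which was a condition for choosing these genes. The DVL4 dex points lie on either side of the empty vector points, as at BGLU45 (higher) and AT5G51950 (lower).

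The largest falls were those of AT4G12490, AT5G62210 and AT4G12500. AT4G12490 had 20.2, 19.5 and 13.6 in empty vector dex, 111, 227 and 182 in DVL4 dex and 459.6, 242 and 180.1 in DVL4 mock leaves. Mock arrays spread more than 2-fold among themselves, with array 1 the highest, but all lay above the empty vector arrays, which were 15.5-fold lower (log2 -3.96 ± 0.36, adjusted p = 0.00039). AT4G12500, whose locus number follows closely, read 7.36, 10.2 and 8.80 in empty vector dex, 64.7, 72.8 and 63.2 in DVL4 dex and 151, 72.9 and 42.7 in DVL4 mock. It was 8.94-fold lower in empty vector dex, or 3.87-fold with the higher floor, and mock array 1 was again the highest (adjusted p = 0.0021, and 0.063 without the 3 arrays of low 5′ signal). At both loci the DVL4 dex arrays lay near the mock arrays, with log2 differences from mock of -0.71 and -0.22 (adjusted p = 0.2 and 0.74). AT5G62210 differed, at 10.9, 21.4 and 33.7 in empty vector dex, 2.51, 5.40 and 13.7 in DVL4 dex and 133, 174 and 379 in DVL4 mock. Both dex-treated groups were below every mock array there, and empty vector dex was 10.4-fold lower than mock (adjusted p = 0.0081, and 0.059 without the 3 arrays of low 5′ signal).

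AT5G61590, which the tables also name DEWAX, a repressor of wax synthesis genes, was the large fall with the smallest adjusted p. It read 130.1, 135 and 136 in empty vector dex, 458, 427 and 386 in DVL4 dex and 591, 810.2 and 915 in DVL4 mock leaves. The empty vector arrays were almost identical, no group overlapped another, and empty vector dex was 5.69-fold lower than mock (log2 -2.51 ± 0.15, adjusted p = 2e-05). The other 2 genes measured of the wax and cuticle list were not past the threshold. EXO (EXORDIUM), a growth-related gene known for its induction by brassinosteroids, had 238, 182 and 239 in empty vector dex, 267, 304 and 468 in DVL4 dex and 595, 731 and 1298 in DVL4 mock. Mock array 3 was the highest, all mock arrays lay above the empty vector arrays, and EXO fell 3.79-fold (log2 -1.92 ± 0.29, adjusted p = 0.0057, and 0.063 without the 3 arrays of low 5′ signal). CCS, the chaperone that delivers copper to superoxide dismutase, read 474, 362 and 422 in empty vector dex and 1053, 923 and 1219.5 in DVL4 mock. The groups were separate and the fall was 2.54-fold (log2 -1.34 ± 0.19, adjusted p = 0.0041). The other falls among the 15 ran from 2.49-fold (EXLA1) to 5.54-fold (AT1G66760).

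ARR15 and RR16, of the cytokinin response, fell. Type-A response regulators are induced by cytokinin and dampen its signalling, and these 2 were the genes measured of the cytokinin response list of 27 entries. The call of RR16 was kept whichever array was left out, and that of ARR15 was not. ARR15 had 32.5, 31.9 and 49.1 in empty vector dex, 14.3, 26.0 and 29.0 in DVL4 dex and 105, 124 and 115 in DVL4 mock leaves. Every empty vector array was below every mock array, and ARR15 was 3.09-fold lower (log2 -1.63 ± 0.29, adjusted p = 0.011); the adjusted p was 0.058 without mock array 2 and also without mock array 3. RR16 (ARR16) read 393, 376 and 532 in empty vector dex, 434, 471 and 574 in DVL4 dex and 805, 839.8 and 945 in DVL4 mock. It was 2.01-fold lower with no overlap (log2 -1.01 ± 0.15, adjusted p = 0.0054, and 0.062 without the 3 arrays of low 5′ signal). The 4 other response regulators measured, RR18, RR19, RR22 and RR23, came from a list not limited to type A. They were not past the threshold, with log2 changes between -0.57 and 0.41. Some of their values lay under the floor of 4.92, down to 0.953 in empty vector dex and 2.58 in DVL4 mock. UGT76C2, a glucosyltransferase that inactivates cytokinins, read 80.5, 124 and 125 in empty vector dex, 199, 183 and 247 in DVL4 dex and 238, 244 and 226 in DVL4 mock. It fell 2.19-fold against mock (log2 -1.13 ± 0.18, adjusted p = 0.0078), and its DVL4 dex arrays overlapped the mock arrays.

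For other hormones few of the listed genes had a named probe set. Of 8 auxin genes measured, IAA29 was called higher and none lower, and the list's median log2 change was 0.17. The auxin-conjugating enzyme WES1 (GH3.5) averaged 52.7 ± 9.72 in empty vector dex and 40.1 ± 3.24 in DVL4 mock and was not past the threshold (adjusted p = 0.24). None of the 3 gibberellin receptors measured and none of the 3 ethylene genes was called. The defensin PDF1.2b, of the ethylene list, read 224, 43.8 and 73.8 in empty vector dex and 196, 166 and 698 in DVL4 mock. Its groups overlapped, with mock array 3 far above the other arrays (log2 -1.66 ± 0.63, adjusted p = 0.16). Of 4 abscisic acid and drought genes, 2 were called higher. EEL, a bZIP factor that acts in seeds, had 23.0, 42.4 and 48.3 in empty vector dex, 272, 287 and 211 in DVL4 dex and 11.5, 11 and 11.9 in DVL4 mock. Empty vector array 1 was the lowest of its group, the groups were separate, and the rise was 3.15-fold (adjusted p = 0.0086), and it was not past the threshold with the higher floor (adjusted p = 0.15). COR15B, a cold-regulated chloroplast protein, was 1.45-fold higher at 3533, 3049 and 3381 in empty vector dex and 2506, 2001 and 2369.8 in DVL4 mock (adjusted p = 0.023). That call was lost without empty vector array 1 or 3 or mock array 2 or 3, with adjusted p up to 0.088.

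Other regulators rose too. GI (GIGANTEA) links the circadian clock to flowering, and it was the single clock gene measured of 35 entries. Its intensity was 201, 141 and 157 in empty vector dex, 568, 541 and 322 in DVL4 dex and 42.9, 47.1 and 28.5 in DVL4 mock leaves. The groups did not overlap, and GI rose 4.26-fold (log2 2.09 ± 0.26, adjusted p = 0.0023). MYBC1, a MYB-related factor known as a negative regulator of freezing tolerance, read 586, 662 and 552 in empty vector dex, 2563, 2289 and 2027 in DVL4 dex and 155, 174 and 138 in DVL4 mock. All 3 groups were separate, and the rise over mock was 3.87-fold (log2 1.95 ± 0.12, adjusted p = 2.5e-05). LBD16, known for its part in lateral root initiation, had 51.7, 72.2 and 58.9 in empty vector dex, 63.8, 75.3 and 63.3 in DVL4 dex and 18.5, 22.3 and 25.5 in DVL4 mock. It rose 2.75-fold with both dex-treated groups above every mock array (log2 1.46 ± 0.20, adjusted p = 0.004).

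The calls of the WRKY genes and of the bZIP genes matched by symbol depended on single arrays. Of 6 WRKY genes measured, WRKY53 and WRKY6, both known regulators of leaf senescence, were called higher (33.3%, beside 5.18% of all genes). WRKY53 read 27.5, 113 and 85.0 in empty vector dex, 26.3, 38.9 and 13.4 in DVL4 dex and 17.0, 12.4 and 9.16 in DVL4 mock. Empty vector array 1 was far below the other empty vector arrays, though above every mock array (log2 2.36 ± 0.55, adjusted p = 0.035, and log2 2.97 without that array). WRKY53 lost its call without empty vector array 2 or 3 or any mock array (adjusted p up to 0.15). All its mock values lie under the higher floor, with which the log2 change was 1.68 and not past the threshold (adjusted p = 0.13). WRKY6 had 101, 121 and 112 in empty vector dex and 57.3, 52.2 and 44.5 in DVL4 mock, with no overlap, and rose 2.17-fold (adjusted p = 0.016). The call was lost without empty vector array 3, mock array 2 or mock array 3 (adjusted p up to 0.078). Of 14 bZIP genes measured, 1 was called higher and 2 lower (21.4%, beside 5.18% of all genes), with a median log2 change of -0.06. bZIP19, which acts in the zinc deficiency response, averaged 577 ± 54.4 in empty vector dex and 419.7 ± 33.5 in DVL4 mock, and was 1.37-fold higher (adjusted p = 0.034). BZIP24 averaged 34.1 ± 0.832 in empty vector dex and 73.5 ± 15.2 in DVL4 mock, and was lower (adjusted p = 0.02). bZIP44 averaged 44.4 ± 9.18 in empty vector dex and 92.3 ± 10.3 in DVL4 mock, and was lower as well (adjusted p = 0.03). All 3 calls were lost without empty vector array 3 or any mock array, and those of bZIP19 and bZIP44 also without empty vector array 1 (adjusted p up to 0.08 for BZIP24 and 0.13 for the others). None of the 3 was called without the 3 arrays of low 5′ signal. YAB3, which helps specify the lower side of the leaf, was the single call among 5 leaf shape genes, 1.51-fold lower (log2 -0.59 ± 0.13, adjusted p = 0.031). It lost its call without empty vector array 2 or 3 or any mock array (adjusted p up to 0.11).

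**Figure D3:**
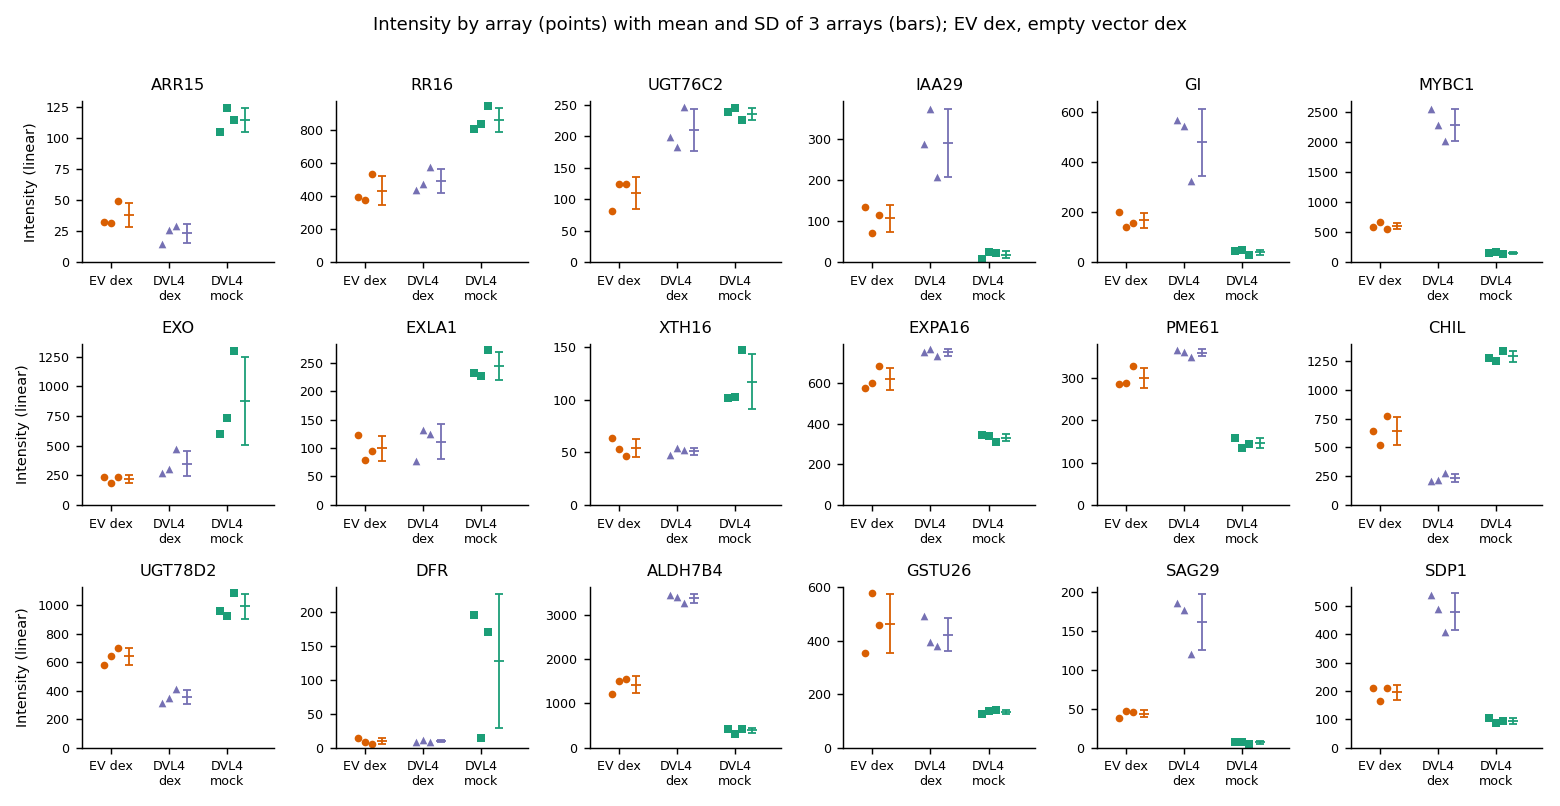
Panels give the linear intensity of 18 genes, with points for the 3 arrays of each group and bars for the mean and SD. ARR15, RR16, EXO, XTH16, CHIL and UGT78D2 are lower in empty vector dex than in DVL4 mock, and GI, MYBC1, EXPA16, PME61, ALDH7B4, GSTU26, SAG29 and SDP1 are higher.

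Cell wall genes moved in both directions. Of 13 cell wall expansion genes measured, 3 were called lower and none higher, with a median log2 change of -0.23, beside 0.02 over all genes. Without the 3 arrays of low 5′ signal 1 of the 13 was called lower, and without empty vector array 1 alone 2 were. Expansins loosen walls, and of the 18 expansin genes measured 1 was called higher and 2 lower. EXLA1, an expansin-like gene, read 123, 79.7 and 94.4 in empty vector dex, 76.3, 132 and 125 in DVL4 dex and 233, 226 and 273 in DVL4 mock. It was 2.49-fold lower with no overlap (log2 -1.32 ± 0.23, adjusted p = 0.01, and 0.059 without mock array 3). EXLA2 had 89.5, 67.0 and 62.4 in empty vector dex and 109, 192 and 211 in DVL4 mock, where array 1 was the lowest. Its fall of 2.28-fold passed narrowly (adjusted p = 0.044), and the call was lost without any array other than mock array 1 (adjusted p up to 0.19). EXPA16, an alpha-expansin, went the other way at 577, 599 and 681 in empty vector dex, 752, 767 and 732 in DVL4 dex and 344, 338 and 311 in DVL4 mock. It rose 1.87-fold, its 3 groups were separate, and its error was small (log2 0.90 ± 0.08, adjusted p = 0.00041).

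Xyloglucan endotransglucosylases cut and rejoin the main hemicellulose of the wall. XTH16 read 63.7, 52.9 and 46.7 in empty vector dex, 47.6, 53.9 and 51.8 in DVL4 dex and 101, 103 and 148 in DVL4 mock, a 2.14-fold fall without overlap (log2 -1.10 ± 0.19, adjusted p = 0.011). The call was lost without mock array 3 (adjusted p = 0.051) and without the 3 arrays of low 5′ signal (adjusted p = 0.061). EXGT-A3 (XTH27) had 926, 1177 and 1058 in empty vector dex and 1678, 1788 and 1764 in DVL4 mock, and fell 1.66-fold (log2 -0.73 ± 0.11, adjusted p = 0.0063). The XTH family by symbol, 9 genes, had XTH16 as its single call.

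Of 4 pectinesterase genes measured, 2 rose and none fell. PME61, a pectin methylesterase, read 287, 288 and 329 in empty vector dex, 368, 362 and 351 in DVL4 dex and 158, 135 and 145 in DVL4 mock. The 3 groups were separate and PME61 was 2.06-fold higher in empty vector dex than in mock (log2 1.04 ± 0.10, adjusted p = 0.00039). PMEPCRF was 1.42-fold higher (adjusted p = 0.02), a call lost without empty vector array 3 or any mock array (adjusted p up to 0.079). XEG113, which adds arabinose to extensin wall proteins, had 304, 320.1 and 368 in empty vector dex and 196, 168 and 192 in DVL4 mock and rose 1.78-fold (log2 0.83 ± 0.10, adjusted p = 0.0023). Of the 22 TBL genes measured, a family that acetylates wall polysaccharides, TBL38 was called higher and TBL37 and TBL45 lower. TBL45 read 545, 368 and 368 in empty vector dex and 722, 753 and 907 in DVL4 mock, a 1.88-fold fall (adjusted p = 0.011). TBL38 read 109.7, 100.2 and 122 in empty vector dex and 54.1, 45.8 and 60.2 in DVL4 mock, a 2.08-fold rise (adjusted p = 0.02). Each of the 3 TBL calls was lost without some array, mock array 3 among them (adjusted p up to 0.058 for TBL45, 0.078 for TBL37 and 0.087 for TBL38). None of the 7 cellulose synthase family genes measured was called.

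SAG29, cwINV6 and SDP1 rose and SWEET1 fell. SAG29 (SWEET15), a sucrose exporter known from senescing leaves, read 38.6, 46.9 and 45.4 in empty vector dex, 186, 177 and 119.9 in DVL4 dex and 7.83, 7.82 and 4.56 in DVL4 mock leaves. It rose 6.48-fold, with no overlap (adjusted p = 0.00046), or 2.17-fold with the higher floor, since its mock values lie near the floor. Of the 12 sugar transport and invertase genes measured, SAG29 and cwINV6 were called higher and SWEET1 lower, with 7 of the 12 below 0 and a median log2 change of -0.07. cwINV6, a fructan exohydrolase, had 17.9, 51.2 and 42.4 in empty vector dex, 194, 166 and 84.1 in DVL4 dex and 7.22, 9.62 and 5.21 in DVL4 mock. Empty vector array 1 was the lowest of its group, and the rise was 4.75-fold (adjusted p = 0.019), but 1.75-fold and not past the threshold with the higher floor. The call was also lost without empty vector array 3, mock array 1 or mock array 3 (adjusted p up to 0.092). SWEET1, a glucose transporter, read 409.9, 475 and 490.2 in empty vector dex and 709, 635 and 591 in DVL4 mock, 1.41-fold lower (adjusted p = 0.021). Without empty vector array 1, mock array 1 or mock array 2 its call was lost (adjusted p up to 0.082). SDP1, the lipase that starts the breakdown of stored oil in seedlings, had 209, 165 and 212 in empty vector dex, 537, 489 and 408 in DVL4 dex and 104, 85.4 and 93.9 in DVL4 mock. It rose 2.06-fold, with all 3 groups separate (log2 1.04 ± 0.14, adjusted p = 0.0041, and 0.051 without the 3 arrays of low 5′ signal).

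The senescence list had 5 measured genes, of which SAG29, WRKY53 and WRKY6 were called higher and none lower, with a median log2 change of 1.12. Of these 3 calls, 1 was kept whichever of the 6 arrays was left out, and 2 were kept with the higher floor. SAG101 read 63.7, 74.0 and 92.0 in empty vector dex and 56.2, 54.1 and 45.1 in DVL4 mock. Its groups were separate but its change was not past the threshold (log2 0.55 ± 0.19, adjusted p = 0.12). Defence genes, which activated GVG can induce, were thinly covered. Of 4 salicylic acid and defence genes measured, WRKY53 was called higher and none lower. That is the same WRKY53 call as in the senescence list, and it was lost without some arrays and with the higher floor. GRX480, a glutaredoxin of salicylic acid signalling, averaged 26.5 ± 6.05 in empty vector dex and 16.8 ± 3.77 in DVL4 mock and was not past the threshold (adjusted p = 0.34). Neither the single jasmonate gene measured nor any of the 3 heat shock and 2 glucosinolate genes was called. None of the 4 genes measured of the dark and sugar starvation list and none of the 8 autophagy genes was called.

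The flavonoid genes measured lay lower in empty vector dex leaves. All 7 measured genes of the flavonoid and anthocyanin list had log2 changes below 0, with a median of -1.02 beside 0.02 over all genes, and 2 were called. Without the 3 arrays of low 5′ signal none of the 7 was called and the median was still -1.02. Without empty vector array 1 alone 2 were called, with the same median. Other settings moved the count both ways. Of the 7, 6 were called lower with each array centred on its median, with no floor and with array weights, and 5 without mock array 2. Only 1 was called without mock array 3 or against a fold of 1.2. With the replicate number as a block over the 6 arrays compared, 0 were called. CHIL, a chalcone isomerase-like protein that promotes flavonoid synthesis, had 645, 524 and 769 in empty vector dex, 205, 218 and 274 in DVL4 dex and 1278, 1252 and 1340.2 in DVL4 mock leaves. The 3 groups were separate, and CHIL was 2.02-fold lower in empty vector dex than in mock (log2 -1.02 ± 0.15, adjusted p = 0.0051, and 0.056 without those 3 arrays). UGT78D2, which adds glucose to flavonols and anthocyanidins, read 579.8, 644 and 699.6 in empty vector dex, 317, 347 and 413 in DVL4 dex and 962, 927 and 1090.2 in DVL4 mock. It fell 1.55-fold, again with 3 separate groups (log2 -0.63 ± 0.12, adjusted p = 0.014, and 0.071 without mock array 3).

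The late anthocyanin genes had larger differences and larger errors. DFR, which makes the precursors of anthocyanidins and was named here after its values were seen, read 14.6, 8.61 and 5.68 in empty vector dex, 9.12, 10.8 and 7.82 in DVL4 dex and 196, 14.3 and 171 in DVL4 mock. Mock array 2 lay among the empty vector arrays while the other mock arrays were more than 10-fold higher, so the groups overlapped (log2 -3.13 ± 0.85, adjusted p = 0.062). UF3GT (UGT79B1), which adds xylose to anthocyanins, showed the same spread at 33.3, 10.4 and 22.2 in empty vector dex, 9.05, 7.54 and 20.8 in DVL4 dex and 285, 38.3 and 346 in DVL4 mock. Its groups were separate, with mock array 2 close to the highest empty vector array, and the change was not past the threshold (log2 -2.98 ± 0.80, adjusted p = 0.058). The phenylpropanoid and lignin list of 9 measured genes had BGLU45 as its single call and a median log2 change of -0.08.

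**Figure D4:**
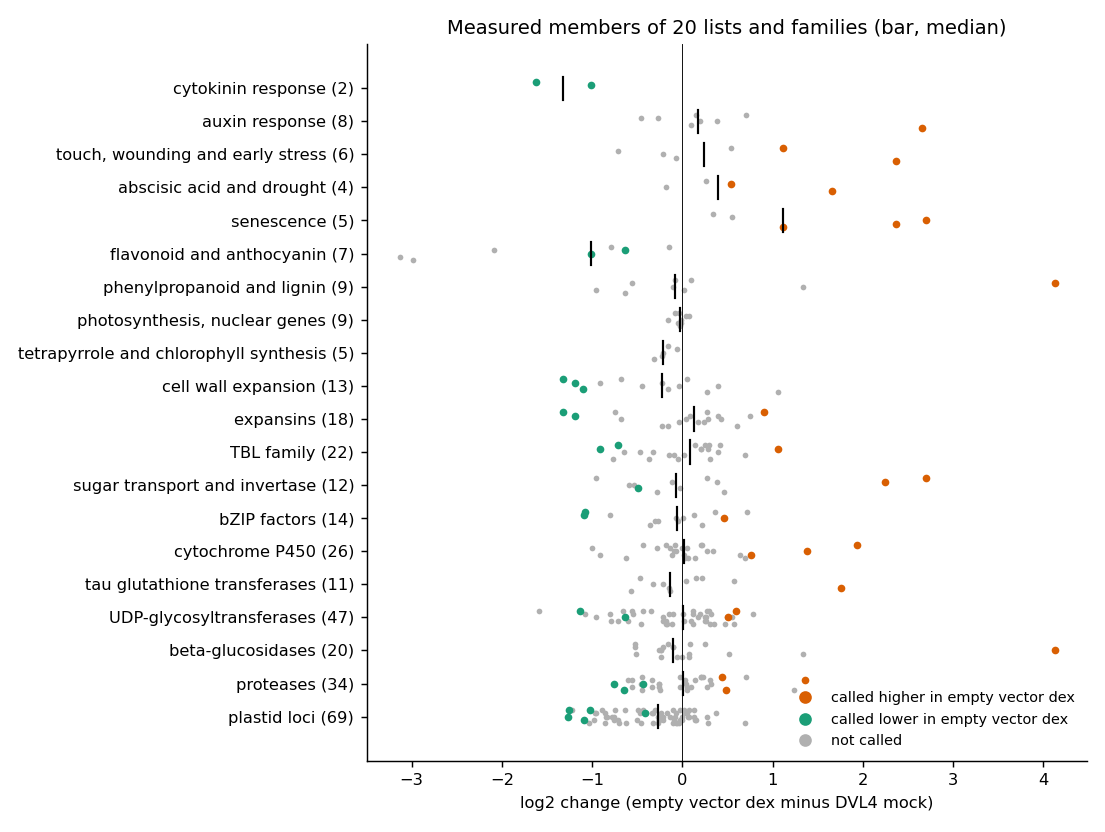
Each point is the log2 change, empty vector dex minus DVL4 mock, of 1 measured member of a list or family, with the number of members in brackets, colours for calls and a bar for the median. The cytokinin and flavonoid rows lie below 0, the senescence row above 0, and most rows hold calls in 1 or both directions around a median near 0.

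A few single genes of redox and detoxification families rose clearly, while most members did not pass the test. Of the 9 genes measured of the detoxification list, 1 was called higher (11.1%, beside 5.18% of all genes). The list's median log2 change was -0.15, with 6 of the 9 below 0. Its 1 call was lost without some arrays, without the 3 arrays of low 5′ signal and with the higher floor. ALDH7B4, a stress-responsive aldehyde dehydrogenase, read 1203, 1506 and 1551 in empty vector dex, 3453, 3389 and 3259 in DVL4 dex and 433, 316 and 421 in DVL4 mock leaves. All 3 groups were separate, and the rise over mock was 3.65-fold (log2 1.87 ± 0.13, adjusted p = 8.3e-05), the single call among 8 aldehyde dehydrogenases. GSTU26, a tau-class glutathione transferase, had 355, 578 and 459 in empty vector dex, 492, 395 and 381 in DVL4 dex and 125, 137 and 141 in DVL4 mock. It rose 3.39-fold (log2 1.76 ± 0.17, adjusted p = 0.00051), and its dex-treated groups overlapped each other. None of the 10 other tau-class genes measured was called, and the median of the 11 was -0.13. Of 26 cytochrome P450 genes, 3 were called higher and none lower. CYP71B26 read 183, 180.5 and 233 in empty vector dex, 708, 713 and 495 in DVL4 dex and 63.5, 46.4 and 46.5 in DVL4 mock, a 3.83-fold rise (log2 1.94 ± 0.19, adjusted p = 0.00051). The calls of CYP71B23 (2.6-fold) and CYP78A9 (1.7-fold) were each lost without empty vector array 2 or 3 or any mock array, and that of CYP78A9 also without empty vector array 1 (adjusted p up to 0.15 for both).

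MSRB6, TIL, ATMDAR2 and MT1C, chosen after their values were seen, moved in different directions. None of the 10 thioredoxin and glutaredoxin genes measured was called. MSRB6, a methionine sulfoxide reductase that repairs oxidised proteins, had 494, 677 and 734 in empty vector dex, 154, 174 and 320.1 in DVL4 dex and 1297, 1278 and 1311 in DVL4 mock. Every group was separate and the fall was 2.07-fold (log2 -1.05 ± 0.25, adjusted p = 0.036), but the call was lost when any 1 of the 6 arrays was left out (adjusted p up to 0.13). TIL, a membrane lipocalin induced by temperature stress, read 1813, 1954 and 1705 in empty vector dex, 1450.2, 1392 and 1428 in DVL4 dex and 2527, 2650.3 and 2455 in DVL4 mock, 1.40-fold lower than mock (log2 -0.48 ± 0.07, adjusted p = 0.0054, and 0.059 without the 3 arrays of low 5′ signal). ATMDAR2, which regenerates ascorbate, rose 1.75-fold (adjusted p = 0.013), a call lost without empty vector array 3, mock array 2 or mock array 3 (adjusted p up to 0.067). MT1C, a metallothionein that binds metals, read 542, 686 and 579 in empty vector dex, 328, 291 and 180.4 in DVL4 dex and 387, 286 and 209 in DVL4 mock. Its 2.1-fold rise (adjusted p = 0.038) was lost without any array other than mock array 1 (adjusted p up to 0.15).

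Other enzymes and protein-degradation genes split in direction. UDP-glycosyltransferases were the largest family by symbol, and of 47 measured 2 were called higher and 2 lower, around a median of 0.01. That is 8.51% of the family, beside 5.18% of all genes. UGT71C4 read 644, 601 and 699 in empty vector dex and 455, 457 and 457 in DVL4 mock, a 1.42-fold rise (log2 0.50 ± 0.08, adjusted p = 0.0056, and 0.055 without the 3 arrays of low 5′ signal). UGT87A2 averaged 731 ± 112 in empty vector dex and 483 ± 80.1 in DVL4 mock, and its call as higher (adjusted p = 0.049) was lost without any array other than mock array 1 (adjusted p up to 0.16). Of 34 proteases measured, 3 were called higher and 3 lower, all of them serine carboxypeptidase-like enzymes. scpl23 had 52.8, 78.0 and 60.3 in empty vector dex and 22.9, 21.6 and 30.0 in DVL4 mock, and rose 2.56-fold (log2 1.35 ± 0.20, adjusted p = 0.0056). scpl48 read 334, 352 and 333 in empty vector dex and 605, 574 and 538 in DVL4 mock, and fell 1.68-fold (log2 -0.75 ± 0.09, adjusted p = 0.0017). SCPL49 (carboxypeptidase Y) was 1.36-fold higher (adjusted p = 0.0097). The calls of SCPL45 (higher), scpl35 and scpl25 (both lower) were each lost without empty vector array 3 or any mock array, among others (adjusted p up to 0.13, 0.14 and 0.17). CHAT, which makes the green leaf volatile hexenyl acetate, had 23.4, 20.5 and 27.4 in empty vector dex and 61.0, 49.5 and 54.4 in DVL4 mock, 2.32-fold lower without overlap (log2 -1.21 ± 0.20, adjusted p = 0.0091, and 0.059 without the 3 arrays of low 5′ signal). Of 11 RING and U-box ubiquitin ligases measured, PUB24 was called higher and PUB23 lower. PUB24 averaged 81.5 ± 5.65 in empty vector dex, 33.0 ± 7.10 in DVL4 dex and 39.2 ± 9.68 in DVL4 mock, a 2.12-fold rise over mock (adjusted p = 0.023). Its call was lost without empty vector array 1 or 3 or mock array 2 or 3 (adjusted p up to 0.1). PUB23 averaged 21.2 ± 3.82 in empty vector dex and 36.6 ± 1.98 in DVL4 mock, and was 1.74-fold lower (adjusted p = 0.049). Its call was lost when any 1 of the 6 arrays was left out (adjusted p up to 0.18).

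Photosynthesis genes of the nucleus differed little. None of the 9 measured was called, and their log2 changes ran from -0.16 to 0.08. The 5 chlorophyll synthesis genes measured were not called either, with all 5 below 0 and a median of -0.21. None of the 5 cell cycle genes measured was called. Of 9 tubulin and actin genes measured, the beta-tubulins TUB6 and TUB9 were called higher, 1.25-fold and 1.28-fold. Both calls were lost without mock array 1 or 3, and that of TUB9 also without empty vector array 1 or 3 or mock array 2 (adjusted p up to 0.065 and 0.11). Neither was called with each array centred on its median or with trend=FALSE.

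Genes of the plastid genome lay lower in empty vector dex, and the shift followed 1 array. Of 69 plastid loci 5 were called lower (ycf3, rpl20, petD, rps15 and rps4) and none higher, with a median log2 change of -0.27 and 54 below 0. By array, the median of the 69 loci relative to the mock mean was -0.80, -0.03 and 0.08 in empty vector dex, -0.70, -0.61 and 0.01 in DVL4 dex, and 0.09, -0.10 and 0.00 in DVL4 mock. Empty vector array 1 and DVL4 dex arrays 1 and 2, the 3 arrays of low 5′ signal, were thus the 3 low ones. Without empty vector array 1 the median was 0.05, with 30 of 69 below 0, and with low 5′ signal as a covariate it was 0.02. The part of 5′ signal in single loci was not tested. rpl20, a ribosomal protein gene, was lower in the other empty vector arrays too, at 133, 204 and 192 in empty vector dex, 165, 129 and 163 in DVL4 dex and 438, 361 and 451 in DVL4 mock. Its log2 change was -1.26 ± 0.18 with array 1 and -1.07 without it (adjusted p = 0.0045 and 0.0064). ycf3, an assembly factor of photosystem I, read 155, 266 and 298 in empty vector dex and 573, 495 and 607 in DVL4 mock, with a log2 change of -1.27 ± 0.24, and of -0.98 without array 1 (adjusted p = 0.015 and 0.02). The call of ycf3 was lost without mock array 1 or 3 (adjusted p up to 0.077). rps4 was 1.33-fold lower (adjusted p = 0.0092, 0.025 without array 1 and 0.054 without all 3 arrays of low 5′ signal), while the calls of petD and rps15 were lost without empty vector array 3 or any mock array, and that of rps15 also without array 1.

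**Figure D5:**
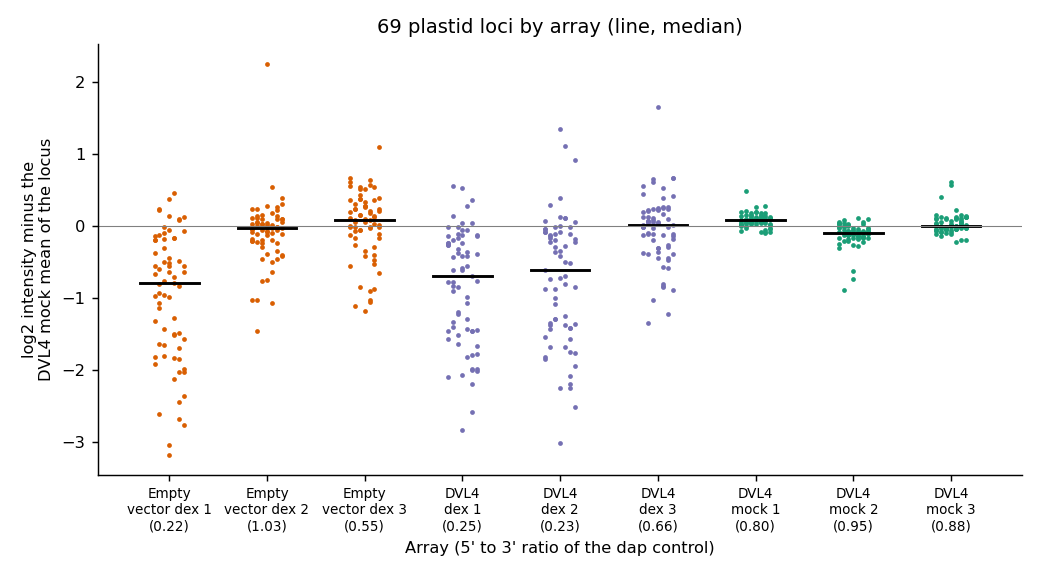
Points are 69 plastid loci in each array, as log2 intensity minus the DVL4 mock mean of the locus, with the median as a line and the 5′ to 3′ ratio of the dap control under each array. The 3 arrays with a ratio under 0.5 are the 3 with medians between -0.80 and -0.61.

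Reference genes and gene order complete the account. PEX4 (UBC21), a common reference gene, read 798, 726 and 742 in empty vector dex, 941, 930.5 and 722 in DVL4 dex and 617, 601 and 590.0 in DVL4 mock. Its empty vector arrays were all above its mock arrays, but the change was not past the threshold (log2 0.32 ± 0.10, adjusted p = 0.1). The other reference loci, AT4G26410 and AT4G34270, changed by 0.05 ± 0.09 and 0.04 ± 0.09 on the log2 scale and were not called; the sign of both turned under some settings. Among 5812 pairs of measured neighbouring genes, by their order in the TAIR10.1 annotation, 24 had both genes called, 21 of them in the same direction. Of all genes 5.18% were called, 460 higher and 232 lower, so some such pairs would arise by chance alone. Clustering of calls along the chromosomes was not tested. The longest run of called neighbours was AT1G28570, AT1G28580, AT1G28590 and AT1G28600, all called higher, with log2 changes of 0.95 ± 0.14, 0.53 ± 0.11, 2.76 ± 0.20 and 0.62 ± 0.08. AT1G28590 was also among the 15 largest rises, at 90.4, 143 and 108 in empty vector dex and 18.1, 16.8 and 14.6 in DVL4 mock. Short overlapping or similar neighbours can share signal on an array, which was not tested.

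DVL4 dex shares its mock arrays with the comparison described here, so the values that follow are set side by side and not tested for likeness. BGLU45 changed by 4.13 ± 0.18 in empty vector dex and by 6.91 in DVL4 dex on the log2 scale, both against DVL4 mock. ALDH7B4 changed by 1.87 ± 0.13 and 3.12 in the same 2 comparisons, MYBC1 by 1.95 ± 0.12 and 3.88, and GI by 2.09 ± 0.26 and 3.58. For these genes the DVL4 dex arrays lay beyond the empty vector arrays on the side away from mock. AT1G13470 changed by 2.7 and 0.61, AT5G15140 by 2.81 ± 0.29 and 0.81, and PUB24 by 1.08 ± 0.23 and -0.24. At these 3 the DVL4 dex change did not pass the threshold (adjusted p = 0.34, 0.077 and 0.51), and the log2 difference of DVL4 dex minus empty vector dex was -2.09, -2.0 and -1.32 (adjusted p = 0.013, 0.0031 and 0.0066).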

How the data were processed

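Total RNA (TRIzol and RNeasy, per the labels' protocols) was labelled with biotin and hybridised to Affymetrix ATH1 arrays. The values are linear intensities as deposited, made by the authors with dChip per the labels; the version, model and scaling used in dChip are not given in these sources. Precision is limited by 3 arrays a group. The 6 arrays were grouped by title. Intensities under the pooled 5th percentile (4.92) were raised to it and log2-transformed. limma 3.58.1 (lmFit, eBayes with trend, R 4.3.3) fitted group over all 9 arrays, and 2-sided p-values were adjusted by Benjamini-Hochberg over 22746 probe sets, with a threshold of 0.05. No AFFX control (64 probe sets) was tested. Values after ± are SE for log2 changes and SD (n = 3) for means, and folds are 2 to the power of the log2 change. The fit was also run on simulated data with independent noise and changes planted in probe sets brighter than the median. Such data hold no shift shared by a whole array and no changed dim probe sets, so they cannot test either.

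GEO's platform table gave 1 gene for 13513 probe sets, several for 503 and none for 8730, and symbols were updated from the TAIR10.1 annotation. Most genes (11798 of 13350) carry a locus number only, so lists by symbol reach few of their entries. For a gene measured by more than 1 probe set, the one of highest mean stood for it. Named are the 15 largest rises and falls, up to 4 genes of smallest p per list, markers and reference genes. The rises and falls came from called single-gene probe sets whose 2 groups did not overlap and whose brighter group exceeded the overall median. MYBC1, LBD16, XEG113, SDP1, DFR, MSRB6, TIL, ATMDAR2, MT1C, CHAT, scpl25, scpl35, rps15 and other called members of a list fall outside this rule and were chosen after their values were seen. Members and lists were chosen with earlier results of these data known. A planned search of promoters for motifs was not run, as no sequences were used here. Alternatives changed the floor, normalization, moderation, arrays and block. Replicate numbers are not stated to pair arrays. Correlations of deviations were -0.04, 0.14 and 0.03 between same-numbered arrays and ran from -0.16 to 0.16 between arrays of different number. With so few arrays they cannot decide whether the numbers pair them. Python 3.11.15, pandas 2.3.3 and matplotlib 3.10.9 drew the lists and figures.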

Additional observations from a re-analysis of the deposited data

How the results depend on the processing

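Against 1412 probe sets called (943 probe sets called higher, 469 probe sets called lower), several settings moved the counts by more than 1.5 times. Calls were 813 (564 higher, 249 lower) with trend=FALSE, 2218 (1454 and 764) with array weights, 892 (558 and 334) with only the 6 arrays compared and 359 (270 and 89) against a fold of 1.2 with limma's treat. Without the 3 arrays with low 5′ signal they were 614 (408 and 206), a setting with fewer arrays that was chosen after seeing the data. Centring each array on its median gave 1618 (904 and 714), and quantile normalization 1540 (866 and 674). Leaving out 1 array gave 480 to 2093 calls, 364 to 1556 higher and 116 to 537 lower, lowest without mock array 3 and highest without empty vector array 2. With the replicate number as a block there were 1256 calls over 9 arrays and 83 (60 and 23) over the 6 arrays compared. The numbers are not stated to pair the arrays. The log2 change of AT4G34270 turned to -0.034 with quantile normalization and -0.0084 with centring, and ran from -0.0014 to 0.081 when 1 array was left out. That of AT4G26410 ran from -0.023 to 0.090, and that of AMS from -0.23 to 0.029, 0.029 being also its value without the 3 arrays of low 5′ signal. The causes were not tested. Of the 30 largest changes, 14 kept their call under all 20 alternatives, 15 lost it in 1 or 2, and ARR15 lost it in 3. The replicate block over the 6 arrays compared ended the most of these 30 calls, 13. AT1G49500, AT5G44050 and AT1G66760 were among the 7 lost without the arrays of low 5′ signal. Among other genes named, the floor at the 25th percentile ended the calls of COR15B, EXLA2, YAB3, UGT87A2, bZIP19, bZIP44, CYP71B23, CYP78A9, ycf3, petD, rps15, scpl25, scpl35, MSRB6 and MT1C. Leaving out the arrays of low 5′ signal ended those of COR15B, EXLA2, UGT87A2, SWEET1, CYP78A9, TBL38, TUB6, PMEPCRF, PUB23, PUB24, SCPL45, scpl35, petD, rps15, ATMDAR2 and MT1C. Centring ended those of CYP78A9, SCPL45 and both tubulins.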

Other observations

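Some of the largest differences lay at probe sets to which the tables used here give no gene. Probe set 265672_at read 5026, 5382 and 4669 in empty vector dex, 8243, 8648 and 7976 in DVL4 dex, and 40.9, 40.5 and 39.3 in DVL4 mock leaves. Both dex-treated groups were above mock by more than 100-fold, and the rise of empty vector dex over mock was 125-fold. Probe set 266134_s_at read 187, 246 and 262 in empty vector dex, 183, 177 and 130.1 in DVL4 dex, and 7.91, 7.38 and 8.71 in DVL4 mock, a 28.7-fold rise of empty vector dex over mock, or 11.4-fold when the higher floor (20.1) is used, which lies above its mock values. Among falls, 250083_at was 5.49-fold lower in empty vector dex than in DVL4 mock. Probe set 245757_at was 7.59-fold lower, but 3.37-fold and not past the threshold with the higher floor (adjusted p = 0.077). Of the 1412 called probe sets, 720 had no single gene in these tables.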
